A study of Mus musculus with 2 samples.

Results

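The genes described here encode proteins of the cytosolic ribosome and paralogs named after them, in uterine stromal cells isolated on day 4 of pregnancy. Members were all probe sets of the deposited table whose platform annotation gave a single gene symbol of the Rpl or Rps series, including the P0 to P2 stalk proteins and Rpsa and leaving out the Rps6k kinases. This gave 105 probe sets for 49 genes, of 45037 probe sets and 18193 genes in all. Of the 49 genes, 26 with Rpl symbols were counted as large subunit, with 48 probe sets, and 23 with Rps symbols as small subunit, with 57 probe sets. Whether each paralog is part of the mature ribosome was not tested. A further 29 symbols that match the rule occur only on probe sets annotated to several genes and are not members.

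Stromal cells, the connective tissue cells around the uterine epithelium, came from C57BL/6 mice, all carrying floxed Msx1 and Msx2. The groups were Msx1Msx2 floxed control mice and Msx1Msx2-null mice, in which PRcre, a Cre recombinase driven by the progesterone receptor gene, deleted both homeobox genes in the uterus. Deletion is therefore limited to cells that express or have expressed that receptor, which include epithelium and muscle as well as stroma. RNA of each genotype was pooled, from 5 mice per the design text or 4 per the extraction protocol, and hybridized to 1 Affymetrix array. All values come from these pools without replicates. No p-value can be computed, and genotype, mice and hybridization cannot be told apart.

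The ribosome reads messenger RNA on its small subunit and joins amino acids on its large subunit. Its proteins are made in matched amounts from single genes scattered over many chromosomes, and here all 49 member genes, on 17 chromosomes, were matched to RefSeq by Entrez ID with the same symbol. Most of their messenger RNAs start with a terminal oligopyrimidine (TOP) tract, an unbroken run of C and T letters at the transcription start, through which TOR signalling sets their translation when cells grow. Stromal cells of the mouse uterus divide around this day of pregnancy under progesterone and estrogen.

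The tract was looked for in the RefSeq promoter table (GRCm38.p6), which held 43 of the 49 genes. A run of at least 8 C or T letters was sought within 30 bases centred on an annotated start, on the transcribed strand. It was found in 19 of the 43 genes (44.2%), against 13.9% of the 27025 genes searched. On the opposite strand 1 of the 43 (2.33%) had such a run, against 15.3% of all genes. By subunit, 11 of 24 large (45.8%) and 8 of 19 small subunit genes (42.1%) had it. Annotated starts are often some bases away from the real one, so a missing run says only that these letters are not in this window. The windows of some genes named below are printed 5′ to 3′, with runs of at least 8 pyrimidines in capitals. The first 4 belong to genes within 1.25-fold between the arrays, and all carry a run. Rps2 and Rps4x, the members with ratios nearest 0, have no run of at least 8 in their windows. The last 4 belong to some of the genes with the larger differences or to paralogs. Rpl39, Rpl12 and Rpl27a, which were past 1.25-fold, are not printed, and their longest runs were 8, 7 and 19.
Rpl35, chr2:39005117-39005146, minus strand: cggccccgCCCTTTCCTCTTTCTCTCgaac
Rpl38, chr11:114668565-114668594, plus strand: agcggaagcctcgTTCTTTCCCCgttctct
Rplp2, chr7:141447636-141447665, plus strand: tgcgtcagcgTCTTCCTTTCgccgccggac
Rps10, chr17:27635230-27635259, minus strand: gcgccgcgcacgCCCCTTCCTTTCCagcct
Rps27, chr3:90213634-90213663, minus strand: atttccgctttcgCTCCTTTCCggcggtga
Rps27l, chr9:66946071-66946100, plus strand: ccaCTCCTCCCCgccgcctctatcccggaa
Rpl22l1, chr3:28805493-28805522, plus strand: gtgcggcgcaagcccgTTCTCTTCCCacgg
Rpl7l1, chr17:46782642-46782671, minus strand: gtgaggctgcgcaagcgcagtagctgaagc

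The paralogs Rps27l and Rpl22l1 thus carry a pyrimidine run near an annotated start, as Rps27 does, while the Rpl7l1 window holds no run longer than 2. In Rps27l the run ends before the annotated start, and the window of its other start holds no run longer than 4. Of the other motifs searched on both strands of the 300 base promoters, CCGGAAG, the core bound by ETS factors, occurred in 21 of 43 members (48.8%) and 9.93% of all genes. AAGATGG, which resembles the YY1 site, occurred in 8 members (18.6%) and 7.28% of all genes, and TATAAA in 6 members (14.0%) and 15.7% of all genes. These matches describe the letters and are not evidence of binding.

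Values are MAS5 signals, 1 per probe set and array, which the authors had scaled to a common trimmed mean of 150. The log2 ratio is null minus control, and a gene is given by its brightest probe set unless stated. A floor was set at the median signal of an array, 31.0 for control and 30.1 for null cells, and genes above it in at least 1 array were used. Signals of different probe sets also depend on their probes, so genes are not ranked by level. Because both arrays were scaled to the same mean, a change in total messenger RNA per cell would not be visible, and fewer cells of a type and less RNA per cell cannot be told apart.

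The labels were checked on the targeted genes. Probe set 1448601_s_at of Msx1 read 1581 in control and 23.0 in null cells, a drop of at least 52.6-fold, and 1449559_at of Msx2 read 63.7 and 14.5, a drop of at least 2.12-fold. Whether these probe sets lie within the deleted segments was not tested. The 15 stromal fibroblast markers were all above the floor, with summed signals of 65504 and 71436. Markers of other cell types were present in both arrays: the summed signal went from 18765 to 10711 for 14 epithelial, 5627 to 3748 for 12 endothelial, 9758 to 6908 for 12 macrophage, 2194 to 3723 for 11 natural killer and T cell (only Cd3e under the floor in both arrays) and 15641 to 20207 for 11 smooth muscle markers. The epithelial markers did not move alike: 11 had ratios below 0 and 3 above. Spink1 alone went from 4657 to 85.2, while Krt19 went from 353 to 724 and Epcam from 987 to 940. Of 5 erythroid markers only Hbb-b2 was above the floor, and no marker was at 0. The 3′/5′ signal ratio, which increases as RNA is degraded, was 0.967 and 1.28 for Gapdh and 1.80 and 2.33 for Actb in the control and null array. The part of these differences in the values below was not tested.

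Ribosomal protein transcripts had nearly the same signal in both arrays. Of the 49 genes, 46 were used, all above the floor in both arrays, and 3 (Rpl39l, Rpl3l and Rps16) were under it in both. The median log2 ratio was -0.02 over the 46 genes, with 19 ratios above 0 and 27 below. Over all 11833 genes used the median was 0.02, with 52.3% above 0 and 47.7% below. Within 1.25-fold either way lay 41 of the 46. The other 5 (10.9%) compare with 35.2% of all genes past that fold. A single gene, Rps27, read by a dim probe set, was past 2-fold, against 3.39% of all genes. It was lower in the null array, where 1.8% of all genes were, and no member was 2-fold higher, where 1.59% were. The members' 105 probe sets together held 6.38% of the summed signal of the control array and 6.26% of that of the null array, and 59 of them were among the 200 brightest probe sets in each.

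**Figure D1:**
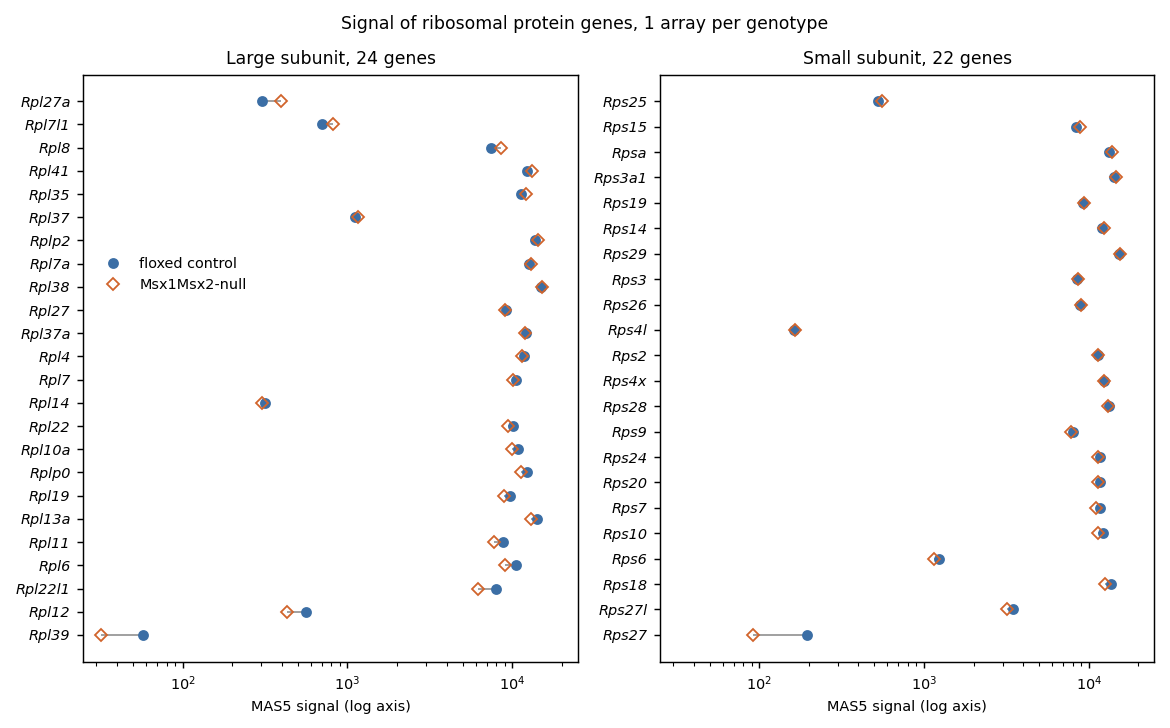
MAS5 signal (log axis) of the brightest probe set of each of the 24 large and 22 small subunit genes used, in the floxed control (filled circles) and Msx1Msx2-null array (open diamonds), ordered by log2 ratio, 1 array per genotype and no error bars. The symbols overlap for most genes, and the widest gaps are those of Rpl39 and Rps27 at low signal.

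Both subunits had medians close to 0. The 24 large subunit genes used had a median log2 ratio of -0.04, with 9 above 0 and 15 below, and a middle 50% from -0.12 to 0.05. The 22 small subunit genes had a median of -0.0038, with 10 above 0 and 12 below, and a middle 50% from -0.07 to 0.03. The difference of the medians, large minus small, was -0.03. The middle 50% of all genes used ran from -0.21 to 0.24 and spanned 0.44, against 0.18 for the large and 0.10 for the small subunit. Probe noise was taken from the differences in log2 ratio between the brightest and next brightest probe set of a gene. It came to an SD of 0.27 per probe set over 4690 genes and 0.083 over the 20 members with such a pair. That SD covers probe noise and not differences between mice or hybridizations.

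The narrow spread went with high signal. Of the 46 genes, 35 had a signal over 5000 in both arrays, and 1 of these, Rpl22l1, was past 1.25-fold, with a middle 50% spanning 0.13. Among 75 other genes over 5000 in both arrays, 10 (13.3%) were past 1.25-fold and the middle 50% spanned 0.20. Among the 11 members with at most 5000 in an array, 4 were past it, against 35.5% of the other genes in that class. The brightest members, up to 15437, lay close to the highest signal of any probe set, 15727 for control and 16168 for null cells. Whether signals in that range stay proportional to RNA was not tested.

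**Figure D2:**
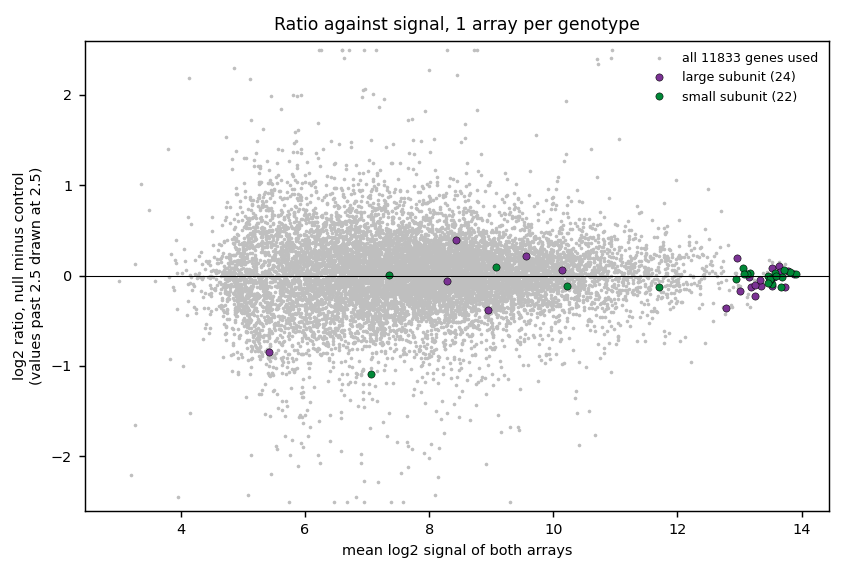
Log2 ratio (null minus control) against mean log2 signal of both arrays for all 11833 genes used (grey) with the 24 large (purple) and 22 small (green) subunit genes, 1 array per genotype. Most members sit at the right edge within 0.2 of 0, and the members past 1.25-fold have low signals except Rpl22l1.

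In the large subunit, 3 genes were lower in null cells by 1.25-fold or more, as were 17% of all genes. Rpl39 encodes a small protein lining the peptide exit tunnel and is X-linked. It went from 57.4 to 31.8 on its only member probe set, a log2 ratio of -0.85 or 1.80-fold, with the null signal just above the floor. Rpl12, a protein at the base of the stalk that recruits elongation factors, went from 562 to 433, 1.30-fold lower. Rpl22l1, a paralog of the RNA-binding protein Rpl22, went from 7938 to 6197, 1.28-fold lower. Of the 3, only Rpl22l1 was read by a bright probe set, and each had a single member probe set, so none has a second reading among members.

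The next lowest ratios were those of Rpl6 (10559 and 9036, log2 ratio -0.22) and Rpl11 (8758 and 7794, log2 ratio -0.17). Rpl11 forms the 5S ribonucleoprotein particle with Rpl5 and can bind the p53 ligase Mdm2 when assembly fails. Rpl5 itself was not a member. Both genes were within 1.25-fold.

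One large subunit gene was at least 1.25-fold higher, Rpl27a, where 18.3% of all genes were. It went from 301 to 397, a log2 ratio of 0.40. Rpl7l1, a relative of Rpl7, came next, with 698 and 813 and a log2 ratio of 0.22. Its 3 probe sets gave 0.21, 0.22 and 0.24, the closest agreement of a difference of that size among the members. Rpl8, a protein near the peptidyl transferase centre, went from 7399 to 8495 (0.20), Rpl41, the smallest ribosomal protein, from 12314 to 13226 (0.10), and Rpl35, at the exit of the tunnel, from 11383 to 12078 (0.09).

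In the small subunit 1 gene of 22 (4.55%) was past 1.25-fold, against 35.2% of all genes. Rps27, which encodes a zinc finger protein, went from 196 to 92.2 on its only member probe set, 2.12-fold lower. Both signals are far under the small subunit medians of 11467 for control and 11151 for null cells. Dim probe sets of some other members departed from the bright ones of the same gene, and Rps27 has no bright member probe set. The paralog Rps27l, a p53 target, went from 3465 to 3176, a log2 ratio of -0.13, with its other probe sets at -0.09 and -0.13. None of the 22 small subunit genes was 1.25-fold higher, where 18.3% of all genes were. After Rps27 and Rps27l the lowest ratios were those of Rps18 (13646 and 12547, -0.12), the TOR pathway phosphoprotein Rps6 (1241 and 1145, -0.12) and Rps10 (12111 and 11355, -0.09). The highest were those of Rps25 (524 and 559, 0.09), Rps15 (8310 and 8808, 0.08), the laminin receptor protein Rpsa (13272 and 13809, 0.06), Rps3a1 (14204 and 14583, 0.04) and Rps19 (9156 and 9368, 0.03). The other 12 small subunit genes lay between these groups.

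The brightest members of each subunit differed by at most 0.13 in log2 ratio. In the large subunit Rpl38 had 14956 and 15111, the stalk protein Rplp2 13789 and 14310, and Rpl13a 14242 and 13033, with log2 ratios of 0.01, 0.05 and -0.13. In the small subunit Rps29 had 15217 and 15437, Rps3a1 the values above, and Rpsa likewise. These proteins sit in different parts of the ribosome, and their ratios lie on both sides of 0.

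Grouped by place in the ribosome, ratios stayed near 0 with the exceptions above. In the P stalk, which activates the elongation factors' GTPase, Rplp0 had 12275 and 11298 (-0.12) and Rplp2 0.05. Around the peptide exit, 4 of 8 listed genes were members: Rpl19 (9760 and 8977, -0.12), Rpl22 (-0.10), Rpl35 and Rpl39. Near the peptidyl transferase centre Rpl4 had 11734 and 11531 (-0.03), beside Rpl8. At the mRNA entry and decoding site Rps2, Rps3 and Rps15 had -0.00061, 0.02 and 0.08. At the mRNA exit and platform Rps14, Rps26, Rps28 and Rpsa ran from -0.02 to 0.06. Of 11 listed genes whose mutation causes Diamond-Blackfan anaemia, a failure of red cell production, 6 were members, from -0.17 for Rpl11 to 0.03 for Rps19. Fau, the precursor of a small subunit protein under another name and so not a member, had 9319 and 9282, a log2 ratio of -0.01.

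Differences within paralog pairs went in both directions. Rpl22l1 was lower relative to Rpl22 by 0.26, Rpl7l1 was higher relative to Rpl7 by 0.27, and Rps27l was higher relative to Rps27 by 0.96. All are on the log2 scale, each is a difference of single readings, and the Rps27 reading is from a dim probe set. The X-linked Rps4x had 12362 and 12301 and its paralog Rps4l 164 and 165, with log2 ratios of -0.01 and 0.01. Rpl39l and Rpl3l, which are known for expression in testis and in muscle, were under the floor at 8.51 and 9.65 and at 10.1 and 8.97.

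Members with a pyrimidine run near an annotated start, 19 genes, had a median log2 ratio of -0.06 with a range from -1.08 to 0.40. The 21 used members without one had a median of -0.01 and ranged from -0.38 to 0.22. The range of the members without a run lay within that of the members with one.

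Probe sets of the same gene mostly agreed closely, and the disagreements lay in a few. Of the 92 member probe sets that cleared the floor in both arrays, 11 were past 1.25-fold, 9 of them among the 19 with at most 1000 in an array and 2 among the 64 over 5000 in both. Of the 20 genes with several such probe sets, 14 had ratios within 0.25 of each other, 5 spanned over 0.5 and none over 1. In 9 of the 20 all probe sets had the same sign, 3 positive (Rpl7l1, Rps15 and Rps3) and 6 negative (Rpl22, Rpl37a, Rpl7, Rps20, Rps27l and Rps7). For Rpl22 the log2 ratios were -0.10, -0.15 and -0.29, with signals on 1416603_at of 7438 and 6062.

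The widest span was that of Rpl37a, a zinc-binding protein of the large subunit. Probe set 1416218_x_at went from 322 to 164 (-0.97), while its bright probe sets, 1416217_a_at and 1460543_x_at, gave -0.04 and -0.02. Rps24, whose transcripts are spliced at the 3′ end into several forms, had 288 and 408 on 1455195_at (0.50) and from -0.25 to -0.04 on 4 bright probe sets. Rps9 had 108 and 137 on 1426958_at (0.34) and 7075 and 5687 on 1434624_x_at (-0.32), while its brightest, 1433689_s_at, gave -0.04. Rps20 had 65.1 and 43.2 on 1450417_a_at (-0.59) and 11698 and 11331 on its brightest. In all 4 genes the brightest probe set was within 0.05 of 0.

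Exceptions among bright probe sets were Rpl7, where 1426163_x_at went from 8929 to 6287 (-0.51) and the others gave -0.05, and Rpl41, where 1422623_x_at went from 6274 to 7799 (0.31). The names of probe sets ending in _x_at or _s_at mark probes that may read several similar transcripts, and ribosomal protein genes have many processed pseudogenes. The median log2 ratio was -0.01 over 38 _x_at, -0.10 over 3 _s_at, -0.02 over 28 _a_at and 0.01 over 23 other probe sets.

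**Figure D3:**
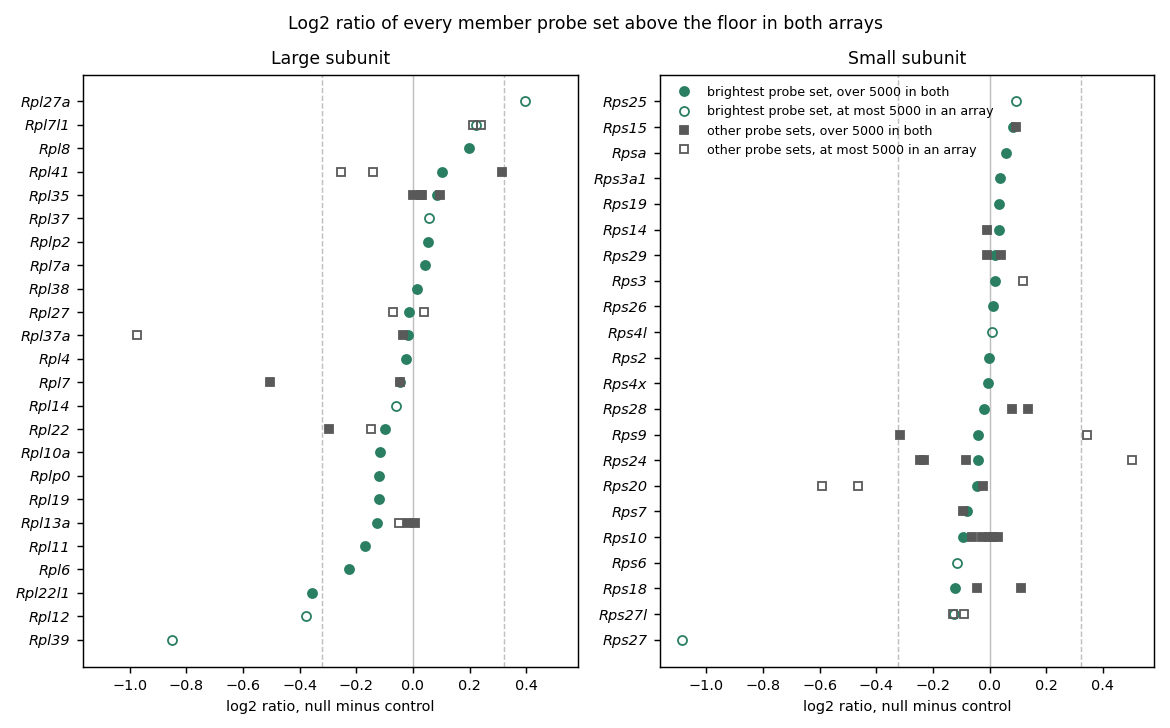
Log2 ratio (null minus control) of the 92 member probe sets that cleared the floor in both arrays, by gene; circles mark a gene's brightest probe set and squares its others, filled where the signal was over 5000 in both arrays, and dashed lines stand at 1.25-fold. Filled symbols cluster near 0, and most symbols outside the dashed lines are open.

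Other parts of the translation machinery had medians near that of all genes as well. The 76 mitochondrial ribosomal protein genes, a ribosome encoded by a separate gene set, were all used. Their median log2 ratio was -0.02, with 34 above 0 and 42 below. Past 1.25-fold were 6 of them (7.89%), against 35.2% of all genes. A share under that of all genes was thus not particular to the cytosolic ribosomal proteins, at 10.9%. Mrpl33 went from 341 to 492 (0.53), Mrpl32 from 796 to 601 (-0.41) and Mrps9 from 292 to 386 (0.40). The 32 initiation factors had a median of -0.03, with 3 (9.38%) past 1.25-fold, all lower. These were Eif2b3 and Eif2b2, subunits of the exchange factor that recharges eIF2, at -0.71 and -0.32, and Eif1a at -0.36. The 12 elongation and release factors had a median of 0.03, with 3 (25%) past 1.25-fold, 2 higher and 1 lower. Eef1a1, which delivers aminoacyl-tRNA and is itself a TOP mRNA, had 13049 and 13249. Eef2k, the kinase that inhibits elongation factor Eef2, had 263 and 355 (0.43), Eef1e1, a partner of tRNA synthetases, -0.38 and the ribosome rescue factor Hbs1l 0.38. Among 13 further TOP mRNAs the median was 0.01, and 2 (15.4%) were past 1.25-fold. Tpt1 had 13666 and 13738, Tmem97 and Cct4 were both at 0.32 and Vim was at -0.32.

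Genes for making ribosomes had list medians close to 0 too. Of 16 genes of RNA polymerase I transcription, 4 were past 1.25-fold higher and 2 lower, with a median of 0.03. These 6 make up 37.5% of the list, close to the 35.2% of all genes past that fold. Ubtf, the factor that opens ribosomal DNA, went from 395 to 606 (0.62), Taf1d from 302 to 424 (0.49) and Taf1b from 110 to 70.7 (-0.64). Of 40 genes of rRNA processing, 25 were above 0 and 15 below, 4 were past 1.25-fold higher (Rrp7a 0.52, Heatr1 0.47, Bms1 0.41 and Pdcd11 0.35) and none lower, with a median of 0.06. That is 10.0% of the list past 1.25-fold. The 33 large subunit assembly genes had a median of -0.05, with 1 past 1.25-fold higher (Ftsj3, 0.35) and 2 lower (Gnl3l, -0.53, and Ddx27, -0.33). Together these were 9.09% of that list. The 14 small subunit assembly genes had -0.06, with Bysl at 0.40 and Ltv1 and Pno1 at -0.32 and -0.31. The 15 genes of TOR signalling had -0.01, with Tsc1, an inhibitor of TOR, at -0.62, Larp4b at -0.23 and Rps6kb2 at -0.37, the last a bound because its null signal was under the floor. Past 1.25-fold were 2 of the small subunit assembly genes (14.3%) and 2 of the TOR signalling genes (13.3%). No gene in these lists reached 2-fold, as 3.39% of all genes did.

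All 26 cell cycle genes on the array were above 0, as were 52.3% of all genes, with a median of 0.83. Of them, 24 were past 1.25-fold higher and 6 past 2-fold higher, where 18.3% and 1.59% of all genes were. Mki67, a marker of dividing cells, had 746 and 1540. Ribosomal protein ratios thus stayed near 0 between the same arrays in which these differed. Whether that separation would recur in other pools cannot be told from 1 array per genotype.

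**Figure D4:**
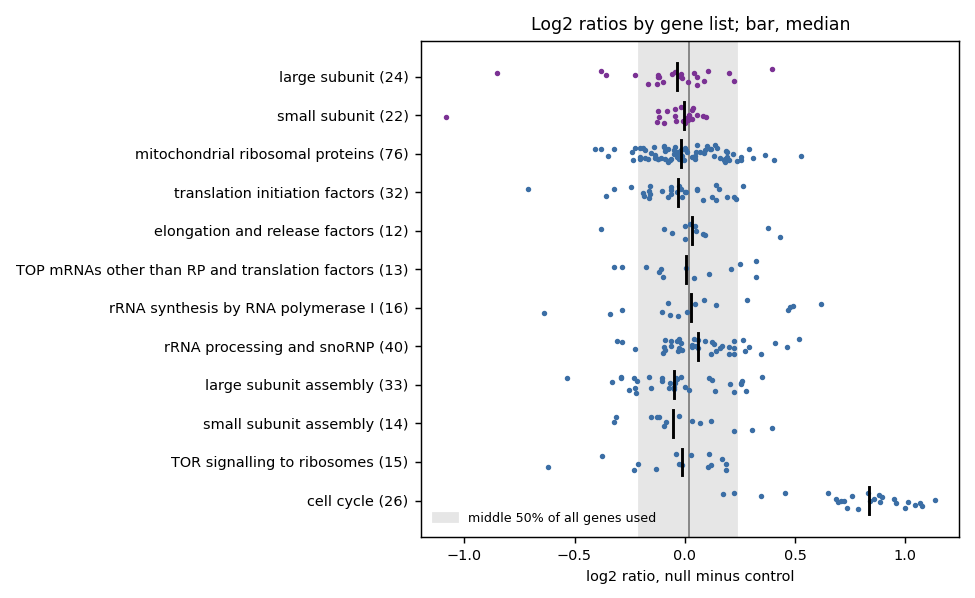
Log2 ratios (null minus control) of the genes used in each list, 1 point per gene with the number used in parentheses; black bars are medians, the grey band the middle 50% of all genes used and the grey line their median. The ribosomal protein lists and the other translation lists centre within 0.06 of 0, and the cell cycle list lies to the right at a median of 0.83.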

How the data were processed

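Each array's deposited column holds linear intensities of probe sets. The submitters' processing notes name MAS5 and Affymetrix Expression Console 1 as the authors' tools. MAS5 subtracts mismatch and background signal, so ratios of dim probe sets are noisy. After removal of the highest and lowest 2% the mean was 150.0 in each array. Background settings, detection calls and the probe design's genome build are not given in the sources used here. Of 45101 probe sets, 64 control probe sets were left out, and 34945 had 1 symbol, 932 several and 9160 none.

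Log2 ratios were taken from the signals as scaled by the authors (Python 3.11.15, pandas 2.3.3). A signal under the floor (50th percentile) was raised to it. With 1 array per genotype no test was run, and genes were counted by size at 1.25-fold and 2-fold. Members and lists were chosen with earlier results of these data known. Named were, per subunit, the 3 brightest members, the 5 highest and 5 lowest ratios, members past 1.25-fold on every probe set above the floor, the paralog pairs, the structural groups, and genes with wide probe set spans, and up to 3 genes of each other list; the genes whose probe sets span under 1, and Eef1a1, Tpt1, Fau, Pdcd11 and Mki67, were added after their values were seen. The calculation was tested on simulated data, where 18 of 18 subunit medians were recovered within 0.1. That margin is wider than the subunit medians found here, so the check covers the calculation and not values of this size. Promoter sequences are RefSeq's, with chromosome 18 left out. Alternatives varied the probe set, floor, scaling (median centring, quantile, loess) and an added constant of 16.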

Additional observations from a re-analysis of the deposited data

How the results depend on the processing

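The processing changed the medians little. Over the 8 alternatives the median log2 ratio ran from -0.05 to -0.03 for the large subunit and from -0.02 to 0.01 for the small subunit, and their difference from -0.06 to -0.02. The count of small subunit genes at least 1.25-fold higher was 2 in place of 0, and lower 2 in place of 1, without _x_at and _s_at probe sets, where Rps24 and Rps9 took dim probe sets at 0.50 and 0.34 and Rps20 one at -0.59. With no floor the counts at least 1.25-fold and at least 2-fold lower were each 2, since Rps16 entered at signals of 3.27 and 0.27. With 16 added to each signal the count at least 2-fold lower was 0, since Rps27 fell short. At a floor of the 65th percentile Rpl39 dropped out, and the large subunit count at least 1.25-fold lower was 2 in place of 3. The small subunit median was above 0 under 3 alternatives: 0.0047 with the median over probe sets, 0.0066 with quantile normalization and 0.01 without _x_at and _s_at probe sets. Counts at 2-fold higher stayed at 0 in both subunits. Of 362 single-gene values under the alternatives, 359 moved by less than the probe set SD over all genes, 0.27, and 350 by less than the SD over members, 0.083. Many could not move: a changed floor left the ratios it kept as they were, and median centring shifted all genes alike. The 3 larger moves all came without _x_at and _s_at probe sets, where 38 values moved less. No paired analysis was possible because each genotype had 1 array, and no array could be left out. Depth is unknown for arrays, and their number limits the precision.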

Other observations

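The 110 probe sets annotated to several genes, at least 1 of them matching the rule for ribosomal proteins, were not used above. Of these, 101 were above the floor in both arrays, with a median log2 ratio of -0.02, 38 above 0 and 63 below. Past 1.25-fold were 8 of the 101, and their range was from -0.54 to 0.59. Of all genes used, counted by gene and not by probe set, 35.2% were past 1.25-fold. No gene is named from them.

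Of the 105 member probe sets, 13 were not above the floor in both arrays although most of their genes had a bright probe set elsewhere. Examples are 1421837_at of Rps18, at 2.57 and 16.3, and 1447563_at of Rps3, at 0.651 and 5.35. The brightest probe sets of these genes read 13646 and 12547 for Rps18 and 8519 and 8634 for Rps3, so dim readings on such probe sets do not show that these transcripts were absent.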
